A study of Mus musculus with 50 samples.

Results

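The 84 genes described here encode the proteins of the cytosolic ribosome, and their messages were measured in mouse hippocampus on 10 Agilent two-color arrays. They were chosen by name among 34655 genes and unnamed probes: every gene whose symbol is Rpl or Rps followed by a digit, or by p and a digit, and Rpsa and Fau, without the S6 kinase genes, Rps19bp1 and pseudogenes. They comprise 46 genes of the large subunit, 32 of the small subunit and 6 paralogs of another member, which are Rpl3l, Rpl7l1, Rpl22l1, Rpl36al, Rpl39l and Rps27l. The array carries 122 probes for them, with 1 probe for 53 genes, 2 probes for 25 genes and 3 or 4 probes for 6 genes. By the RefSeq table of the assembly GRCm38.p6 the 84 genes lie on 20 chromosomes, and chromosome 7 holds the most of them, 14 genes.

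The study compared 5 wild-type (WT) male mice with 5 transgenic (TG) male mice that over-express DCLK-short, a short splice form of the doublecortin-like kinase gene. Both groups had a C57/BL6j background and were housed individually before the experiment, and the left and right hippocampus of a mouse formed 1 sample. RNA was amplified, coupled to Cy3 or Cy5, and a WT sample was placed with a TG sample on each array. Each of the 10 mice was measured on 2 arrays, once in each dye, so the 10 arrays are not 10 independent pairs of mice. The promoter that drives the transgene, the founder line and the age of the mice are not given in the sources used here.

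A ribosome has a small subunit, which reads the message, and a large subunit, which joins the amino acids. Each subunit is a set of different proteins on a frame of ribosomal RNA, and nearly every protein is present once, so cells make these proteins in matched amounts. Their messages are short and abundant, and most of them start with a run of pyrimidines, the terminal oligopyrimidine (TOP) tract, through which mTOR signalling regulates their translation. In neurons the same messages are also found in axons and dendrites.

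The start sites of these genes are shown first, because the shared start of the messages is a feature that the choice by name did not use. RefSeq held a promoter of 300 bases (assembly GRCm38.p6) for 64 of the 84 genes. The pyrimidine motif CTTTC, searched on the sense strand from 10 bases before to 15 bases after the start, was found in 16 of the 64 genes (25.0%) and in 3.68% of all 27025 genes with a promoter. The motif CCGGAAG, which ETS factors are known to bind, was searched on both strands of the 300 bases and was found in 26 of the 64 genes (40.6%) and in 9.93% of all genes. Neither motif contains the other. A match is a description of the letters and not of a site in use. The 30 bases around the start of 7 members follow, 5′ to 3′ with 15 bases before the start, in lower case with CTTTC in capitals. The first 4 passed the test in the comparison of TG with WT, and the last 3 were among those with the lowest log2 ratios.
Rpl38: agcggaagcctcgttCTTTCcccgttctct
Rpl28: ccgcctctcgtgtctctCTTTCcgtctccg
Rps26: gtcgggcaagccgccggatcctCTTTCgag
Rps28: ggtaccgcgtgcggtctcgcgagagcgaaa
Rpl4: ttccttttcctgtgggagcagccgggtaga
Rpl7l1: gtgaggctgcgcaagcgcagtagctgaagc
Rpl3l: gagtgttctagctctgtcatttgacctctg
They lie at chr11:114668565-114668594 (plus strand) for Rpl38, chr7:4792950-4792979 (plus) for Rpl28, chr10:128626492-128626521 (minus) for Rps26, chr17:33824548-33824577 (minus) for Rps28, chr9:64173372-64173401 (plus) for Rpl4, chr17:46782642-46782671 (minus) for Rpl7l1 and chr17:24727811-24727840 (plus) for the first of 2 starts of Rpl3l. These 7 windows are examples and do not stand for the rest. Over the 64 genes, 5 of the 16 with CTTTC and 22 of the 48 without it passed the test, and the median log2 ratio of TG over WT was 0.39 in both sets, so the ratios did not separate by this motif.

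A doubt about the labels bears on every direction given here. On the one-color ABI arrays, Tmem254a was the only 1 of 33012 probes to pass a false discovery rate (FDR) of 0.1 between genotypes in these data. Its signal was higher in TG mice (log2 14.8 ± 0.25 against 13.0 ± 0.21 in WT mice, SD, n = 5 each; limma FDR 0.0251 after quantile normalization and 0.102 after median centring). When 1 mouse was left out, it missed the limit in 7 of 10 fits (FDR 0.0363 to 0.154) and stayed higher in TG in all 10. On Agilent, with arrays read as labelled, the same gene was lower in TG on all 10 arrays, with log2 ratios between -1.16 and -0.63 (mean -0.99, limma FDR 6.48e-06). The direction as labelled on Agilent is therefore opposite to that on ABI. Gabra2, a subunit of the GABA-A receptor, was higher in TG on Agilent as labelled (log2 ratio 1.26 ± 0.23, limma FDR 0.0198). For Gabra2 the study gives the opposite direction, lower in TG on all of its platforms, Agilent included, and by qRT-PCR. If arrays 1 to 5 had traded their labels with arrays 6 to 10, the sign of every log2 ratio would turn. All values below are stated as labelled, and "higher in TG as labelled" would read as lower in TG after such an exchange. For Dclk1, from which the transgene derives, the log2 ratio averaged over 4 probes lay between -0.26 and 0.05 on the 10 arrays (limma FDR 0.273), and which of these probes the transgene carries is not given in the sources used here. Among the members, Rps18 alone could be named on ABI through a shared accession. Its log2 signal there was 8.51 ± 0.59 in WT and 9.57 ± 0.92 in TG mice (SD, n = 5 each), at a limma FDR of 0.957.

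The ribosomal protein messages were among the brighter signals. The median over members of the mean log2 intensity was 11.5, against 6.77 over all genes. All probes of 82 of the 84 genes lay above a background limit, the 95th percentile of the 314 negative controls, in Cy3 and in Cy5 on all arrays, and no member spot was saturated. One exception was Rpl39l, a paralog known from testis, whose 2 probes were near background (mean log2 intensity 5.82). Rpl3l, a paralog of striated muscle, was also dim (6.24). The median signal of an array over all probes was between 109 and 169 in Cy3 and between 77.9 and 165 in Cy5.

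In the fit over 10 arrays, 35 of the 84 ribosomal protein genes passed an FDR of 0.1 (limma, adjusted over all genes; "called" in what follows), all 35 with a higher level in TG as labelled. Over all genes, 8.16% were called in either direction and 4.03% were called higher. The 35 genes had log2 ratios between 0.30 and 0.66, which is 1.23-fold to 1.58-fold. The median over all 84 members was 0.41, and it was 0.00 over all genes. A positive ratio was found for 80 members and a negative one for 4 (Rpl4, Rpl3, Rpl7l1 and Rpl21). An unadjusted limma p below 0.05 was found for 72 members and for 6610 of all 34655 genes. Of the 49 members that were not called, 31 had an FDR between 0.1 and 0.2 and 18 a higher one. The limit fell within a run of close values, with Rplp1 at 0.099 and Rpl13 at 0.101. The count of 35 did not hold when each mouse was given 1 value in place of 2 arrays. The limma test of 5 TG against 5 WT mice called none of the 84 genes (0.0837% of all genes were called), with a smallest FDR among members of 0.267 for Rpl23a. In that test 57 members and 2835 of all 34655 genes had an unadjusted p below 0.05. With the arrays exchanged before the mice were averaged, again none was called (0.0317% of all genes), with a smallest FDR of 0.371. There 60 members and 2574 of all genes had an unadjusted limma p below 0.05. The test over arrays treats both arrays of a mouse as separate observations, so its p-values are too small where mice differ.

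The 10 arrays fell into clearly different values. The median log2 ratio of the 84 genes was 0.81 on array 2, 0.86 on array 3, 0.68 on array 6, 0.74 on array 8 and 0.82 on array 9. On the other 5 arrays it was 0.05 (array 1), 0.07 (array 4), -0.17 (array 5), 0.06 (array 7) and 0.07 (array 10). After loess, the medians of arrays 2, 3, 6, 8 and 9 did not overlap with those of the other 5. The median over all genes stayed between -0.01 and 0.00 on every array. Of the 84 genes, 74 to 80 had a positive ratio on each of the high arrays and 16 to 59 on the others. Arrays 2 and 9 carry the mouse labelled WT3, arrays 3 and 8 carry WT4, and array 6 carries WT5, whose other array (array 4) gave a low value. The mean over the 5 arrays with TG in Cy5 was 0.32 ± 0.48 and that over the 5 arrays with TG in Cy3 was 0.48 ± 0.37 (SD of the array medians), so the dye orientations differed by less than the spread between arrays. These values are those after loess. With median centring in its place, arrays 2, 3 and 9 had medians of 0.94, 1.15 and 0.90. Arrays 6 (0.46) and 8 (0.35) then lay near arrays 1, 4, 5 and 7 (0.37 to 0.40), and array 10 was at -0.16. The division of the arrays into 2 sets therefore depended on the normalization.

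**Figure D1:**
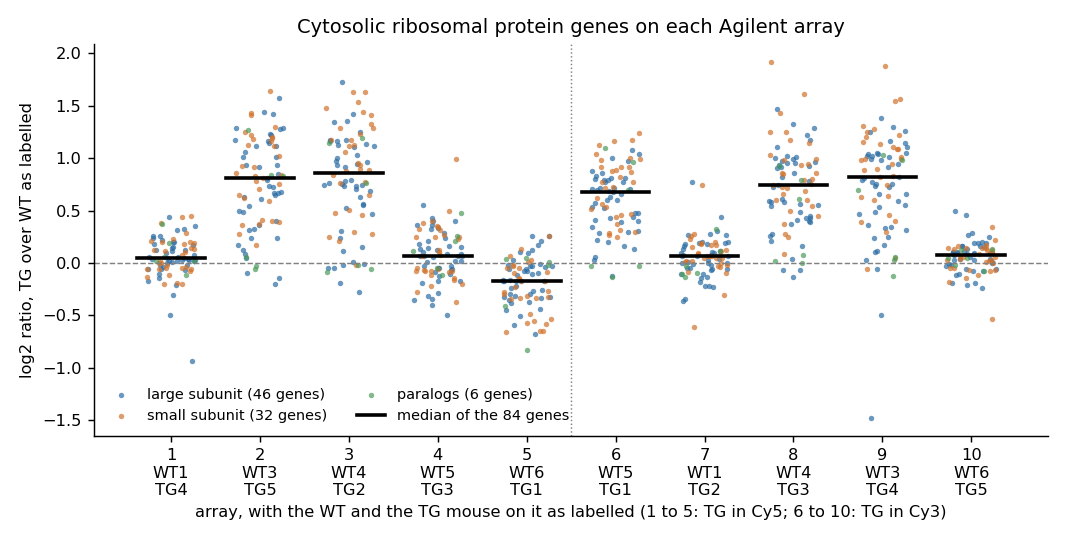
Log2 ratio of TG over WT as labelled (y axis) of each of the 84 cytosolic ribosomal protein genes on each of the 10 Agilent arrays (x axis, with the mice on it), points colored by subunit and black bars at the median of the 84 genes. After loess, the medians of arrays 2, 3, 6, 8 and 9 are between 0.68 and 0.86, and those of the other 5 arrays are between -0.17 and 0.07.

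When the 2 channels were separated after loess, the same pattern was carried by the WT mice as labelled. The median log2 intensity of the 84 genes was 10.9 in Cy3 and 10.8 in Cy5 for WT3, and 10.8 in Cy3 and 11.0 in Cy5 for WT4. For WT5 it was 11.6 in Cy3 and 11.0 in Cy5, and this gap of 0.56 between dyes was the widest of the 10 mice, the next being 0.25 in TG5. The other 15 of the 20 channels were between 11.5 and 11.9. WT1 (mean of both dyes 11.6) and WT6 (11.6) lay within the range of the 5 TG mice (11.6 to 11.7). The groups thus overlapped: the mean over mice was 11.2 ± 0.37 in WT and 11.7 ± 0.07 in TG (SD, n = 5 each), and the WT mice spread more widely. WT3 or WT4 was the lowest of the 10 mice for 74 of the 84 genes, and these mice were the 2 lowest for 62 genes. If arrays 1 to 5 and 6 to 10 are exchanged, the mice low in both dyes are those labelled TG2 (10.9) and TG3 (10.8), and TG4 becomes the mouse with the gap of 0.56 between its dyes.

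**Figure D2:**
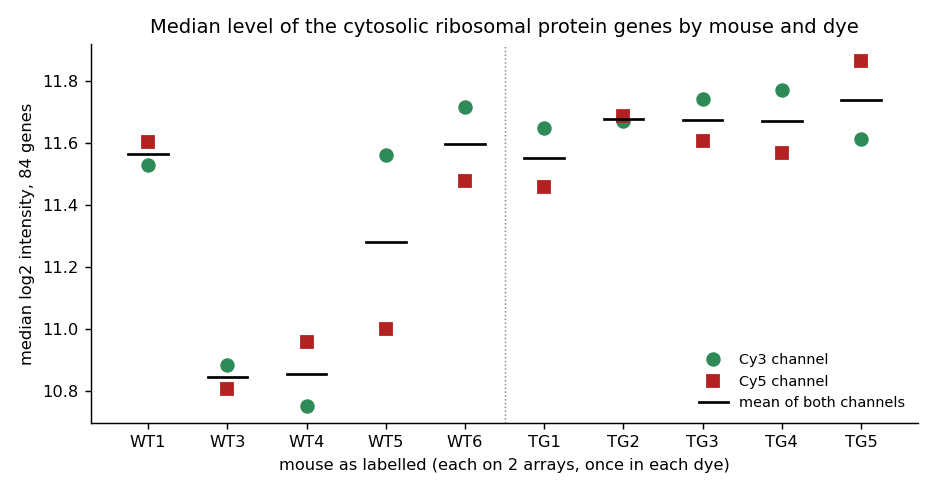
Median log2 intensity of the 84 genes (y axis) in the Cy3 channel (circles) and the Cy5 channel (squares) of each mouse as labelled (x axis), with a bar at the mean of both. WT3 and WT4 are low in both dyes, WT5 in Cy5 alone (11.0), and the 5 TG mice have means between 11.6 and 11.7.

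Leaving out mice changed the number of calls. Without both arrays of WT3, or without both arrays of WT4, none of the 84 genes was called at an FDR of 0.1 by limma, where 39 and 37 members had an unadjusted p below 0.05 and 1.04% and 0.97% of all genes were called. Without WT5 there were 2 calls (2.38% of the members, against 2.21% of all genes), without TG3 2 (against 3% of all genes) and without TG5 4 (4.76% against 2.41%). Without TG2 there were 6 (7.14% against 3.52%), without TG4 12 (14.3% against 4.74%), without TG1 19 (22.6% against 3.63%) and without WT6 61 (72.6% against 8.59%). The shares without WT5 or TG3 are thus near or below those of all genes. Without WT1 there were again 35 calls (6.01% of all genes), of which 27 were among the original 35. The median log2 ratio of the members was lower without WT3 (0.31) or WT4 (0.31). Without both together, an alternative chosen after these values were seen, the median was 0.12. In that fit limma called no member and 0.0375% of all genes, and 7 members had an unadjusted p below 0.05. So few genes of any kind were called there that the absence of members does not set them apart. Single arrays mattered too, since the count was 7 without array 2, 7 without array 3, 5 without array 6, 8 without array 8, 9 without array 9 and 60 without array 5, where between 2.9% (array 6) and 9.1% (array 5) of all genes were called. With TG in Cy5 alone 3 members were called, which is 3.57% and below the 12.1% of all genes, and with TG in Cy3 alone 28 were called, 33.3% against 11% of all genes. On arrays of 1 orientation, genotype and dye effects cannot be told apart, so the calls of members and of all genes there can hold both. The slides of arrays 1 to 5 and of arrays 6 to 10 come from different number series in the file headers, so slide series and dye orientation cannot be told apart.

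**Figure D3:**
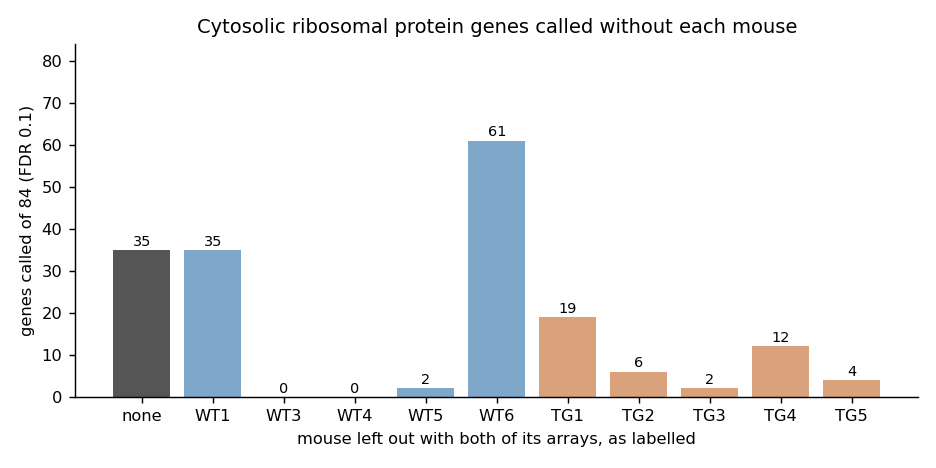
Number of the 84 genes called at an FDR of 0.1 (y axis) in the fit over all 10 arrays (none) and after both arrays of 1 mouse were left out (x axis). The bar is at 35 with all mice, at 0 without WT3 or WT4, and at 61 without WT6.

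The large subunit proteins surround the exit tunnel and the peptidyl transferase centre. Of its 46 genes, 21 were called and all 21 were higher as labelled, with a median log2 ratio of 0.35. Rpl19 had the smallest p of all members: its log2 ratio was between -0.08 and 0.82 over the 10 arrays (median 0.45), positive on 9 of them, with a mean of 0.42 ± 0.09 (SE) and an FDR of 0.033. Rpl23a, which lies beside the tunnel exit where the signal recognition particle docks, was higher on all 10 arrays (0.03 to 1.34, median 0.62, mean 0.64 ± 0.14). These 2 genes differed in how far single arrays spread but shared the high arrays 2, 3, 6, 8 and 9.

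Rpl11, which together with Rpl5 binds Mdm2 when ribosome assembly is disturbed, had ratios between -0.06 and 1.02 (median 0.52), a mean of 0.51 ± 0.12 and an FDR of 0.0426. Rpl5 itself had a mean of 0.26 ± 0.12 and was not called (FDR 0.247). Rpl38, whose loss in mice is known to disturb the translation of Hox messages, had the highest ratio of the large subunit genes at 0.66 ± 0.20, with a range from -0.38 to 1.73 (median 0.60, FDR 0.0946). Rpl41, the smallest of the ribosomal proteins, was close to it with 0.66 ± 0.17 (range -0.16 to 1.42, median 0.65, FDR 0.0606). The difference between Rpl38 and Rpl41 is far smaller than either standard error. Rpl28, Rpl29, Rpl36a, Rpl37 and Rpl24 completed the named large subunit genes, with means between 0.36 (Rpl37) and 0.56 (Rpl36a) and FDRs between 0.0433 (Rpl29) and 0.0739 (Rpl24). Other called genes of this subunit were Rpl10, Rpl10a, Rpl13a, Rpl15, Rpl23, Rpl26, Rpl30, Rpl37a and Rpl39, with mean ratios from 0.30 for Rpl23 to 0.59 for Rpl39. The mean of Rpl23 averages a dim and a bright probe with different ratios.

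The small subunit held 12 calls among 32 genes, all higher as labelled, and its median log2 ratio of 0.48 was above that of the large subunit, without a test of the difference. All 32 of its genes had a positive mean ratio. Rps24, one of the proteins mutated in Diamond-Blackfan anaemia, was between -0.04 and 1.41 (median 0.61), positive on 7 of 10 arrays, with a mean of 0.62 ± 0.15 and an FDR of 0.0486. Rps26, from the same disease group, had 0.60 ± 0.15 (FDR 0.0511). Rps25, needed by some viral internal ribosome entry sites, had 0.40 ± 0.09 (FDR 0.0385), and Rps18 had 0.35 ± 0.09 (FDR 0.0543). Rps7, Rps12, Rps16, Rps19 and Rps20 were called as well, with means from 0.39 for Rps7 to 0.50 for Rps20.

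The highest mean ratio of all members was that of Rps29, at 0.76 ± 0.26. Its values were 1.65, 1.44, 1.16, 1.92 and 1.88 on arrays 2, 3, 6, 8 and 9, and between -0.49 and 0.10 on the other 5 arrays. With values in 2 separate sets of arrays it was not called (FDR 0.128). Rps28 showed the same arrangement with a mean of 0.66 ± 0.20 (range -0.33 to 1.63) and passed at an FDR of 0.097. Rps14, one of the 3 brightest members (mean log2 intensity 12.9), had a mean of 0.43 ± 0.16 and was not called (FDR 0.158), and Rps4x, the X-linked copy of the Rps4 gene, had 0.16 ± 0.06 (FDR 0.181). Fau, which is made as a fusion of a ubiquitin-like domain with Rps30, had a mean of 0.50 ± 0.19 and was not called either (FDR 0.178).

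**Figure D4:**
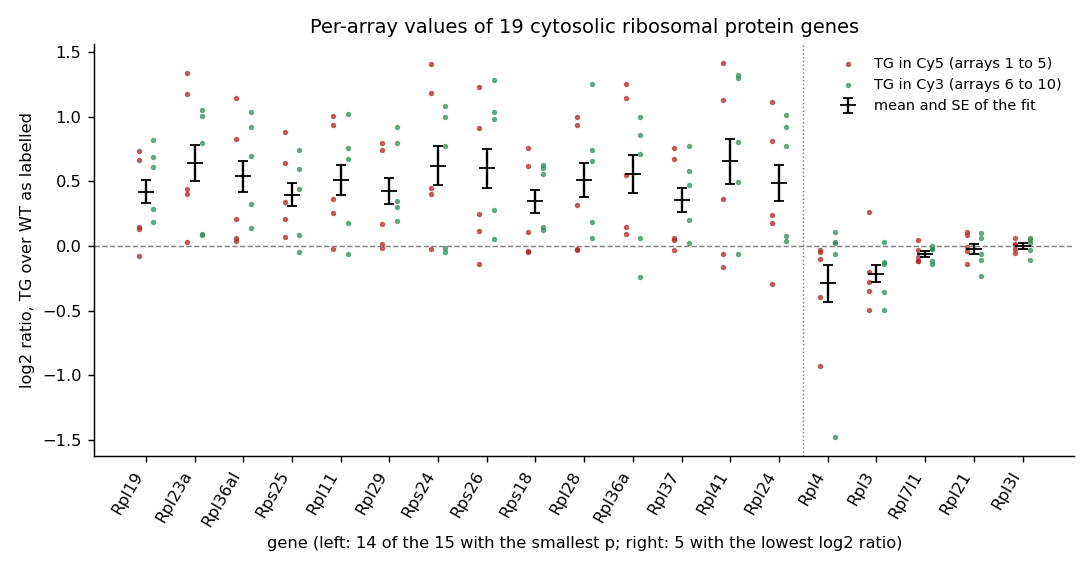
Log2 ratio of TG over WT as labelled (y axis) of 19 members (x axis) on the 5 arrays with TG in Cy5 (red) and the 5 with TG in Cy3 (green), with the mean and its SE from the fit over 10 arrays. The 14 genes plotted of the 15 with the smallest p have means between 0.35 and 0.66, and the 5 with the lowest ratios have means between -0.29 and 0.00.

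The stalk proteins, which recruit the elongation factors, differed in the size of their ratios. Rplp1, the brightest member (mean log2 intensity 13.8), had a mean ratio of 0.51 ± 0.16 with values from -0.17 to 1.23 (median 0.51) and was called at an FDR of 0.099. Rplp2, its partner in the stalk dimer, had 0.25 ± 0.09 and was not called (FDR 0.13). On arrays 2, 3, 6, 8 and 9 Rplp1 was between 0.91 and 1.23 and Rplp2 between 0.38 and 0.69, and on the other 5 arrays they were between -0.17 and 0.11 and between -0.24 and 0.12, so both were high on the same arrays. The value of Rplp2 averages a bright probe (intensity 12.1) with a ratio of 0.49 ± 0.18, close to that of Rplp1, and a dim probe (6.41) with 0.02 ± 0.04. Rplp0, the base of the stalk and a common reference gene, had 0.06 ± 0.04, with all arrays between -0.10 and 0.24 (FDR 0.45). Rpsa, the laminin receptor precursor of the small subunit, was similar at 0.05 ± 0.04 (range -0.16 to 0.26, FDR 0.664). Rplp0 and Rpsa thus kept a narrow range on the same arrays on which Rplp1 was high and low. The value of Rpsa also averages a bright probe (intensity 11.6, ratio 0.09 ± 0.07) and a dim probe (6.20, 0.00 ± 0.03), so its range is in part that of the dim probe.

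A few members went the other way. Rpl4, a large subunit protein of the tunnel wall, had the lowest mean at -0.29 ± 0.14, and was not called (FDR 0.315). Its ratio was -0.93 on array 1 and -1.48 on array 9, which both carry the mouse labelled TG4, and between -0.40 and 0.11 on the other 8 arrays. Rpl3, which reaches into the peptidyl transferase centre, had a mean of -0.21 ± 0.07 with ratios from -0.50 to 0.26 (median -0.24) and missed the limit at an FDR of 0.105. Rpl3 was called lower as labelled in 8 of 41 alternative settings, with a smallest limma FDR of 0.0169. It is also among the 3 brightest members (mean log2 intensity 12.9). On arrays 1 and 9 Rpl3 was at -0.50 and -0.49, and the elongation factor messages Eef1a1 (-0.93 and -1.73) and Eef2 (-2.45 and -1.96) were low on the same arrays. The 6 oligodendrocyte markers had medians of -0.95 and -0.97 there, and their part in the values of Rpl4 and Rpl3 was not tested.

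Among the paralogs, some of which replace their relatives in particular tissues, 2 of 6 were called. Rpl36al, a retrogene copy of Rpl36a, had a ratio between 0.04 and 1.15 on all 10 arrays (median 0.51), a mean of 0.54 ± 0.12 and an FDR of 0.0378, and its parent Rpl36a had 0.56 ± 0.14 (FDR 0.0565). The 2 genes encode nearly the same protein, and how far their probes share messages is not given in the sources used here. Rps27l, a target of p53, was called with 0.47 ± 0.14 (FDR 0.0783), and Rpl22l1 had 0.45 ± 0.18 (FDR 0.194). Rpl7l1, a nucleolar relative of Rpl7, had -0.06 ± 0.02 (FDR 0.182), Rpl3l had 0.00 ± 0.02 (FDR 0.988) and Rpl39l had 0.00 ± 0.02 (FDR 0.974). The 3 paralogs near 0 were also the dimmest of the 6 (mean log2 intensity 5.82 to 7.80, against 8.56 to 11.1). Rpl3l, Rpl39l and Rpl21 (-0.02 ± 0.04, mean log2 intensity 6.82, FDR 0.844) were the 3 dimmest members.

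**Figure D5:**
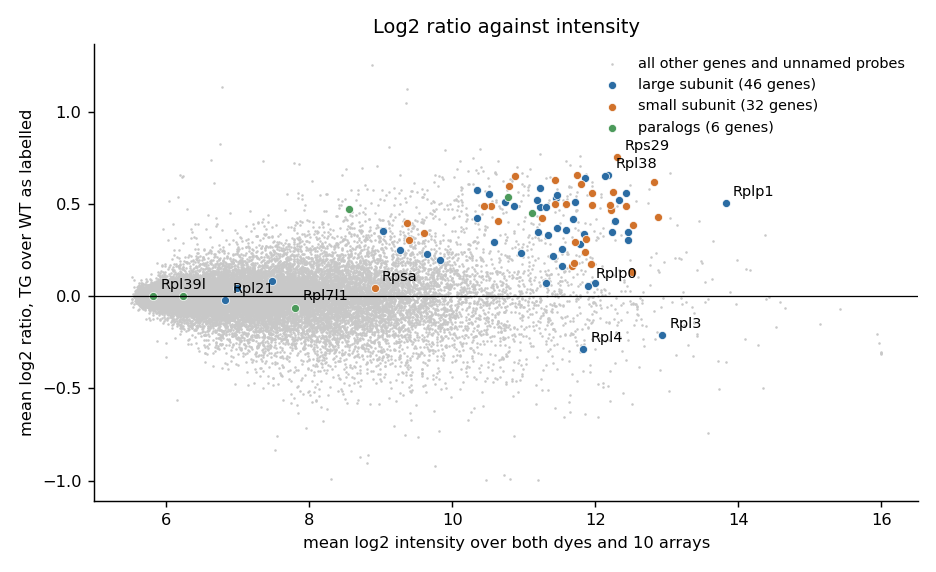
Mean log2 ratio of TG over WT as labelled (y axis) against mean log2 intensity (x axis) of all 34655 genes and unnamed probes (grey) and of the 84 members (colored by subunit). Most members above an intensity of about 10 lie between 0 and 0.76, Rpl4 and Rpl3 lie below 0, and the dim Rpl39l and Rpl21 lie at about 0.

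Brightness and ratio went together across the members only loosely (Spearman's rho 0.24 over 84 genes, which share the 10 arrays and are not replicates). The 360 genes outside the set that were brighter than its median intensity had a median log2 ratio of -0.01, with 62 called higher and 50 called lower as labelled, which is 31.1% called in all against 41.7% of the members. Bright genes were therefore often called in both directions, whereas all calls among the members in this fit had 1 direction. In some other settings members were also called lower: with the WT mouse as replicate block, 58 of the 60 calls were higher. Within genes, the brighter probe gave the higher ratio in 20 of the 31 genes with several probes, and in all 7 genes whose probes differed by more than 2 log2 units of intensity. In Rpl37 the dim probe (6.10) had a ratio of 0.05 ± 0.02 and the bright probe (12.0) 0.66 ± 0.18. In Rps15a the ratios were 0.05 ± 0.08 at an intensity of 7.93 and 0.56 ± 0.17 at 10.9, and in Rps25 they were 0.15 ± 0.04 at 6.72 and 0.65 ± 0.16 at 12.0. The gene means of these 3 genes, 0.36 for Rpl37, 0.30 for Rps15a and 0.40 for Rps25, thus average a bright and a dim probe. The means of Rps18 and Rpl23 do so as well. The ratios of Rps18 were 0.03 at an intensity of 6.09, 0.49 at 11.2 and 0.52 at 11.5. Those of Rpl23 were 0.08 at 8.61 and 0.51 at 12.5. The probes of a gene shared a sign in 29 of 31 genes, with a median gap of 0.07, and 43 of the 122 probes were called when fitted on their own. The share over all probes was not taken for that fit, and in the fit per gene 8.16% of all genes were called. The probe of Rpl37 with the higher ratio spans positions 4902928 to 4902987 of chromosome 15 and the other 4904502 to 4904561, in coordinates of the deposited files, which name no build.

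With 1 value per mouse, 8 members had all 5 TG mice above all 5 WT mice as labelled, against 0.923% of all genes, among them Rpl19, Rpl23a, Rpl28, Rpl36al, Rpl37, Rps24 and Rps25. Rpl23a was at log2 11.1 to 12.0 in the WT mice (mean 11.5 ± 0.39, SD) and at 12.1 to 12.2 in the TG mice (12.2 ± 0.06). Rps24 was at 11.9 to 13.1 in WT (12.5 ± 0.56) and at 13.1 to 13.2 in TG (13.1 ± 0.06). In Rps24 the WT mice WT1 (13.04) and WT6 (13.06) lay just under the lowest TG mouse (13.09). In Rpl23a WT6 (11.98) and WT1 (11.83) lay below the lowest TG mouse (12.07). In both genes WT3, WT4 and WT5 lay further down. For Rps29, WT3 (11.0) and WT4 (10.9) were far below WT1 (12.7), WT6 (12.8) and the TG mice (12.5 to 12.9), so that the groups overlapped. For 61 of the 84 genes WT3, WT4 and WT5 were the 3 lowest of the 10 mice.

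Other genes of translation were counted in the same fit over arrays, from lists chosen with earlier results of these data known. Of 76 mitochondrial ribosomal protein genes, whose products build the separate ribosome of mitochondria, 41 were called (53.9%, against 8.16% of all genes). Of these, 40 were higher and 1 lower as labelled, and the median log2 ratio of the 76 genes was 0.19. Mrpl43 (0.30 ± 0.05, FDR 0.0124) was positive on all 10 arrays (0.11 to 0.57), as was Mrps15 (0.26 ± 0.05, FDR 0.0175), and Mrpl50 (-0.31 ± 0.05, FDR 0.0143) was the 1 gene called lower, negative on all 10 (-0.69 to -0.15). Their median was between 0.24 and 0.38 on arrays 2, 3, 6, 8 and 9 and between -0.05 and 0.13 on the others, so the genes of both ribosomes were high on the same arrays, those of mitochondria over a narrower range. With 1 value per mouse limma called none of the 76 genes (42 at an unadjusted p below 0.05, against 2835 of all 34655 genes).

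Among 8 other genes with TOP messages, 3 were called. Btf3, the beta subunit of the nascent polypeptide-associated complex, had 0.26 ± 0.08 (FDR 0.0939). Nap1l1, a histone chaperone, was lower as labelled at -0.26 ± 0.05 (FDR 0.0255). Of 9 elongation factor genes 2 were called, Eef1b2 higher (0.34 ± 0.08, FDR 0.0478) and Eef1a1 lower (-0.50 ± 0.15, FDR 0.0833), and Eef1d had 0.09 ± 0.04 (FDR 0.187). Of 30 initiation factor and poly(A) binding genes 5 were called, 1 higher and 4 lower, among them Eif4e, the cap binding protein (-0.18 ± 0.03, FDR 0.0196), Eif4h (-0.26 ± 0.06, FDR 0.042) and Eif3k (0.36 ± 0.09, FDR 0.0504). Of 28 ribosome biogenesis genes 2 were called (7.14%, below the 8.16% of all genes). These were Nhp2 (0.45 ± 0.11, FDR 0.0499) and Nop10 (0.57 ± 0.15, FDR 0.0535), both of the H/ACA particle that guides pseudouridylation. Nop16 missed the limit (0.11 ± 0.03, FDR 0.101). None of 16 mTOR signalling genes was called by limma, with 1 of them at an unadjusted p below 0.05: Tsc2 had -0.14 ± 0.06 (FDR 0.23), Rictor -0.06 ± 0.03 (FDR 0.311) and Mlst8 0.11 ± 0.06 (FDR 0.36). The list medians were 0.12 for the TOP messages, 0.02 for elongation factors, -0.01 for initiation factors, 0.03 for biogenesis and -0.01 for mTOR signalling, against 0.00 over all genes. With 1 value per mouse limma called none of these 91 genes (18 at an unadjusted p below 0.05, against 2835 of all 34655 genes).

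Another 59 genes and unnamed probes are described in the files as ribosomal proteins or as similar to one but fall outside the rule. Of these, 15 were called (25.4%, against 8.16% of all genes), 14 higher and 1 lower as labelled, with a median log2 ratio of 0.12.

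A dye effect was called for few of these genes. With genotype and dye orientation in the model, 2 of the 84 genes had a dye effect at an FDR of 0.1, Rps9 (-0.36 ± 0.10 log2 Cy5 over Cy3, FDR 0.0304) and Rpl14 (-0.14 ± 0.04, FDR 0.0529), against 23.9% of all genes. The median effect over members was -0.08 (range -0.36 to 0.28), against -0.01 over all genes. Members varied between arrays (median SD of a member 0.48), so the low count does not show that the effect is small. The genotype term of the model with dye orientation called 31 members (10.1% of all genes were called), 28 of them among the 35.

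Cell type markers were read in the same ratios, since bulk RNA cannot tell fewer cells of a type from less RNA per cell. The 7 markers of hippocampal neurons had array medians between -0.07 and 0.08 and 1 was called. The 5 astrocyte markers had medians between -0.08 and 0.40 (2 called). The 6 oligodendrocyte markers ranged from -0.97 to 0.17 (1 called), the 5 microglia markers from -0.10 to 0.24 (1 called), the 4 choroid plexus markers from -0.21 to 0.33 (0 called by limma, 0 at an unadjusted p below 0.05), the 3 endothelial markers from -0.29 to 0.09 (1 called), the 2 blood markers from -0.57 to 0.24 (1 called) and the 3 thalamus markers from -0.38 to 0.20 (0 called by limma, 0 at an unadjusted p below 0.05). On arrays 2, 3, 6, 8 and 9, where the ribosomal protein genes were high, the microglia median was between 0.01 and 0.24, against -0.10 to 0.15 on the other 5 arrays (0.15 on array 7, below 0 on the other 4). The blood median was between -0.23 and 0.24 on the high arrays and between -0.57 and -0.03 on the others, and that of choroid plexus between -0.19 and 0.33 and between -0.21 and -0.02. The astrocyte median was between 0.04 and 0.40 on the high arrays and between -0.08 and 0.15 on the others. In all 4 lists the ranges on the high and the other arrays overlapped. The mean log2 intensity of the neuron markers was between 6.99 and 11.4, so the labelled tissue carries its markers. The part of these cell types in the ribosomal protein values was not tested.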

How the data were processed

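Hippocampal RNA of 5 WT and 5 TG mice was read from 10 Agilent two-color arrays. The scanner software of the authors (Feature Extraction 8.5.1.1) gave the deposited mean and median pixel intensity, local background and flags for 43790 spots, and the deposited log10 ratios of Cy5 over Cy3, which per the file headers were background-subtracted and dye-normalized. The ABI intensities of 33012 probes were deposited by the authors without normalization. The other platforms were not used here, and the Illumina columns could not be paired with mice. Members and lists were chosen with earlier results of these data known.

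Fits used limma 3.58.1 in R 4.3.3, with statmod 1.5.0. For the 41534 spots that are not controls, within-array loess was applied to uncorrected intensities, and the log2 ratios were turned to TG over WT by the labelled dyes, and averaged per probe (41174) and per gene. Of the probes, 22072 were named by RefSeq accession and 2102 by description, and 17000 kept their identifier. Linear models (intercept, empirical Bayes) were fitted over 34655 genes with Benjamini-Hochberg adjustment and an FDR limit of 0.1; "called" means past it. No filter on low signals was used. For 1 value per mouse, loess and Aquantile normalized channels were averaged. The number of arrays limits the precision. ABI log2 signals were quantile-normalized, since the study's vsn was not installed. Scripts were tested on simulated data.

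The named members are the 15 with the smallest p, the 5 highest and 5 lowest ratios, the 3 brightest and 3 dimmest, the paralogs, Rplp0, Rplp1, Rplp2, Rpsa and Fau, the 3 whose probes differ most, and in each translation list the 3 genes with the smallest p. Some genes that the rule names are not reported here. Rpl5, Eef2, Rps9, Rpl14 and Gabra2 were named after their values were seen.

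The alternatives covered background correction (normexp, offset 50), normalization, pixel summary, saturated spots, present probes, robust regression, dye and mouse terms, probe choice, an FDR of 0.05, and leaving out arrays or mice.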

Additional observations from a re-analysis of the deposited data

Results flagged for a closer look

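In groups of 5 mice, 3 of 68 comparisons of a mouse with the rest of its group set 1 mouse apart by Dixon's criterion, where chance gives about 1 in 20. As labelled, the log2 level of Rps18 in TG4 was 9.66 (the other TG mice 9.78 to 9.81). The level in TG1 was 10.9 for Rpl22l1 (the others 11.4 to 11.5) and 11.9 for Fau (the others 12.2 to 12.3). The low WT3 and WT4 were not set apart by it in any gene tested, since they are low together.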

How the results depend on the processing

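The exchange of arrays turns every sign, and with 1 value per mouse it gave a median of -0.41 for the 84 genes. In all other alternatives the median log2 ratio of the 84 genes kept its direction as labelled. It stayed within the spread between arrays, from 0.12 without WT3 and WT4 together to 0.54 with median centring. Of the 84 genes, 35 were called in the main setting. The count was 15 with the log ratio of the scanner software (6.16% of all genes were called) and 66 with median centring (3.36%). It was 8 with robust regression, which is 9.52% against 8.82% of all genes, and 8 at an FDR of 0.05 (3.56% of all genes). On the arrays with WT in Cy3 alone it was 3 (12.1% of all genes). With 1 value per mouse it was 0, as labelled (0.0837% of all genes) or after the exchange of arrays (0.0317%). Without WT3 and WT4 together it was also 0 (0.0375% of all genes). In these fits without calls of members, few genes of any kind were called. Taking the mouse as a replicate block gave 63 calls for the TG mouse (12.2% of all genes) and 60 for the WT mouse (15.1%), at estimated correlations of -0.16 and -0.25, and with dye orientation added, an alternative chosen after the data were seen, 10 and 32 calls (6.74% and 10.9% of all genes) at correlations of 0.12 and -0.02. The 41 mitochondrial ribosomal protein genes called became 27 with robust regression, 24 at an FDR of 0.05, 5 on the arrays with WT in Cy3 alone, and 0 with 1 value per mouse (as labelled or exchanged) or without WT3 and WT4. The 12 genes of the other translation lists became 21 and 22 with the TG or WT mouse as replicate block, 5 at an FDR of 0.05, 5 on the arrays with WT in Cy3 alone, and 0 with 1 value per mouse (as labelled or exchanged) or without WT3 and WT4. The causes of these changes were not tested, beyond the fewer arrays or mice that enter. On the arrays with WT in Cy3 alone, genotype and dye effects cannot be told apart. Leaving out 1 array or mouse gave 0 to 61 calls and medians of 0.31 to 0.50 for the 84 genes, 3 to 47 calls for mitochondrial ribosomal proteins, 0 to 18 for the other lists, 1 to 3 for the dye effect (2 in the main setting, 20 with median centring), and 0 to 0 for 1 value per mouse. Tmem254a on ABI differed by 1.70 to 1.88 when 1 mouse was left out, with an FDR of 0.0363 to 0.154 that missed the limit in 7 of 10 fits, and by 1.84 with median centring, where its FDR was 0.102. Of 1352 values of 33 named genes under the alternatives, none of the called ones changed sign, where the signs after the exchange of arrays were turned back. The replicate number of the arrays does not pair mice, and slide or scan date could not be used as a block, since each array is its own slide and all were scanned on 1 date.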
